A study of Mus musculus with 6 samples.

Results

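Pan-leukocyte genes, as the name is used here, are genes that white blood cells of several lineages transcribe. Not all serve every lineage: Cybb, Fcgr3 and Tyrobp are described below by their roles in phagocytes, myeloid cells or natural killer cells. The set described here held 10 of the 20015 genes in the deposited table, chosen by name: Ptprc, Itgb2, Laptm5, Cd53, Cybb, Coro1a, Lcp1, Fcgr3, Tyrobp and Fcer1g. All 10 had a row. RNA of the quadriceps, which straightens the knee, was read in 3 injured and 3 non-injured libraries, and each group has a library A, B and C. The injury is to the anterior cruciate ligament (ACL) of the knee, and the labels give no strain, age or interval since injury for either group.

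The organism label is Mus musculus, although the design text and the protocol call the tissue human. In the table, all 10 genes start at the base at which GENCODE M21 places the mouse gene on mm10, and end 1 base beyond it, so positions below are GENCODE's on mm10. A word in the table's name, myonuclear, points to nuclei of muscle fibres. The protocol describes total RNA, with no sorting of nuclei or cells. Whether nuclei or whole tissue were used is therefore not settled by these sources.

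White blood cells hold a kit of parts, some of it limited to certain lineages, that muscle fibres mostly lack. CD45, the product of Ptprc, is a phosphatase of the cell surface that tunes kinases downstream of immune receptors, and Itgb2 is the beta chain that all leukocyte integrins of one family share. Coro1a and Lcp1 shape the actin beneath the membrane, Cybb is the catalytic subunit of the phagocyte NADPH oxidase, and Fcgr3 is a receptor for antibody. Tyrobp and Fcer1g are short adaptor proteins whose tails carry ITAMs, the tyrosine motifs through which receptors without a signalling tail recruit the kinase Syk. In muscle, resident macrophages hold most of these transcripts at rest, and after damage neutrophils, monocytes and lymphocytes enter from the blood.

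Every member was rare in both groups. Over all 10 genes together there were 414, 300 and 277 counts in injured A, B and C, against 112, 135 and 70 in non-injured A, B and C. This came to 0.00641%, 0.00465% and 0.00369% of all counts in the injured libraries, and to 0.00142%, 0.00154% and 0.000968% in the non-injured ones. Counts of a single member in a single library ran down to 0, so counting error is a large part of every value below.

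Several promoters of the set hold the core of the site bound by PU.1, the factor of myeloid and B cells that Spi1 encodes, and they are shown because Spi1, described further on, is a gene of white blood cells measured in the same libraries. The letters searched were GAGGAA on both strands, so that TTCCTC counts as a match too, in the 300 bases from 250 before to 50 after each RefSeq start (GRCm38.p6). A match was present in windows of 5 of the 8 members with an entry, namely Cd53, Cybb, Fcgr3, Laptm5 and Ptprc, and in 6 of the 12 windows of the 8 genes. Both Fcgr3 windows, whose starts lie close together, hold the same site, which is thus counted in each. Over all 32851 windows the share was 28.3%. A match describes the letters and does not show that the factor binds there. The windows below run from 120 bases before to 30 after the annotated start, on the gene's strand, with matches in capitals. Coro1a has none in either of its windows and is given for contrast.
Cd53, chr3:106790120-106790269, minus strand: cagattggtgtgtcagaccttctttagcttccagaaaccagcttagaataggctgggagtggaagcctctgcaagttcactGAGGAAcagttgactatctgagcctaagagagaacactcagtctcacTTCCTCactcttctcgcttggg
Fcgr3, chr1:171059374-171059523, minus strand: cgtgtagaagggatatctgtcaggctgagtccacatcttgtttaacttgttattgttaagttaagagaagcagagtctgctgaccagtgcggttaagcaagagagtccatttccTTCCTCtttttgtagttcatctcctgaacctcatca
Cybb, chrX:9469295-9469444, minus strand: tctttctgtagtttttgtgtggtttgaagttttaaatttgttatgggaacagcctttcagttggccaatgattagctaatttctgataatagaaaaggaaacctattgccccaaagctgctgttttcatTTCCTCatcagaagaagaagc
Coro1a, chr7:126704787-126704936, minus strand: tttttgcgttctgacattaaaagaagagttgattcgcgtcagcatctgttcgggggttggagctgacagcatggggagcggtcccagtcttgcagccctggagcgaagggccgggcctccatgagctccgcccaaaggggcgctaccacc

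In Cd53 the match on the gene's strand begins 39 bases before the start and the opposite one at base 9 after it. In Fcgr3 the match begins 6 bases before the start, and in Cybb at base 10 after it. These RefSeq starts need not be the upstream ends of the GENCODE genes placed below. That of Cd53 is, while those of the windows printed for Cybb, Fcgr3 and Coro1a lie 18447, 5532 and 2971 bases inside the gene. The 300-base windows differ in composition: the Cybb window is 35.3% G and C with 1 CpG, while that of Coro1a is 61.3% G and C with 19 CpG.

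All 10 genes had a higher mean in injured muscle, and in counts pooled over 3 libraries the ratio of injured to non-injured ran from 2.25 (Ptprc) to 6.06 (Itgb2). The summed level of the 10 genes was 49.6 ± 12.4 CPM (counts scaled to a common library size) in injured and 13.1 ± 3.24 CPM in non-injured libraries (SD, n = 3 each). In bulk RNA a change in the number of cells and a change in RNA per cell cannot be told apart. By edgeR's quasi-likelihood test over 16095 genes, calling a gene where its Benjamini-Hochberg adjusted p was below 0.05, Itgb2, Laptm5 and Fcgr3 rose and none fell among the 7 members tested. That rule called 0.715% of all tested genes higher and 0.0311% lower in injured muscle, and 0.747% of the 4017 tested genes with mean counts in the range of the 7 members, 17.3 to 45.8 per library. The other 3 members, Cd53, Tyrobp and Fcer1g, had too few counts to pass the filter.

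The 7 that passed are not a neutral sample of the 10. To be tested, a gene needed about 10 counts per library in at least 3 libraries. Ptprc, Laptm5 and Lcp1 reached this in all 3 non-injured libraries, Itgb2, Cybb and Coro1a in 1, and Fcgr3 in 0, so Fcgr3 entered through the injured libraries alone. The median log2 fold change of the 7 was 1.86, beside 0.00 for all tested genes and 0.14 for the genes in the same range of mean counts.

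**Figure D1:**
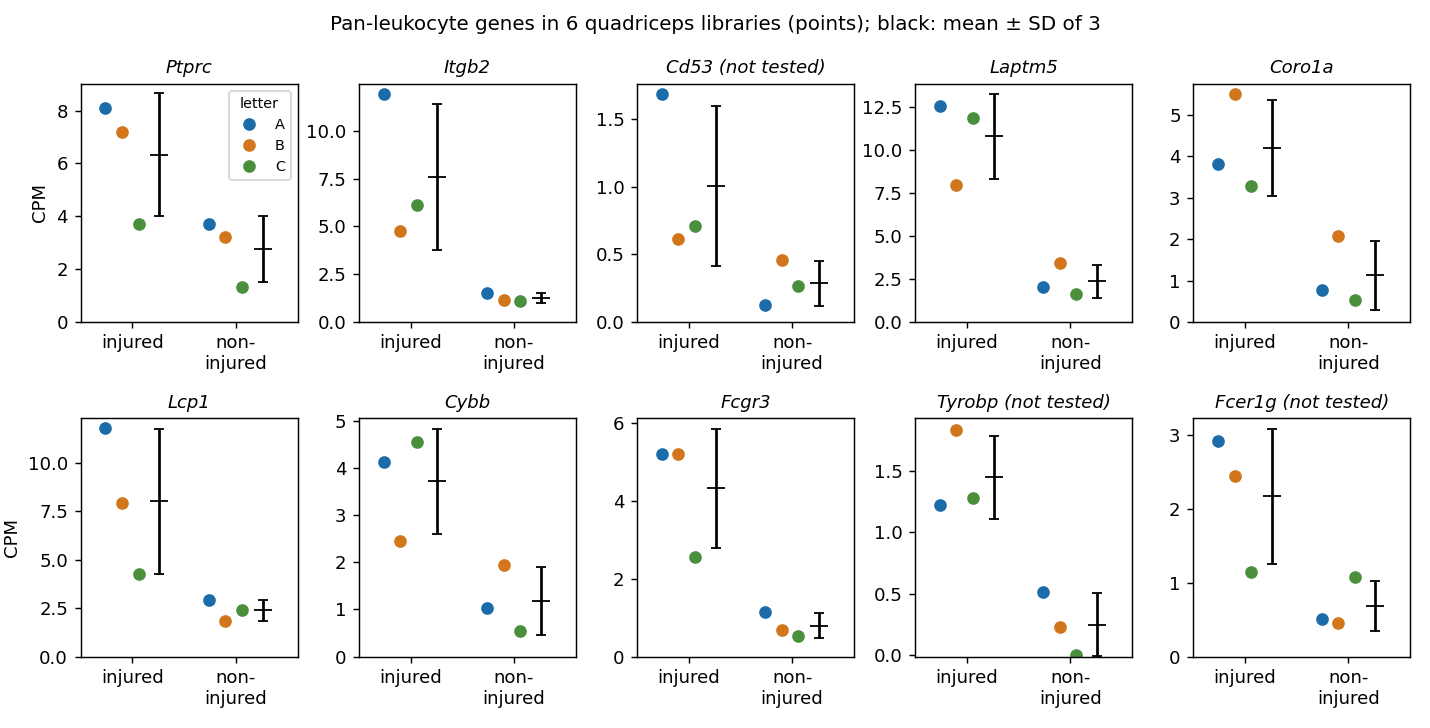
CPM of each gene (vertical axis) in injured and non-injured libraries, with points coloured by letter and black marks for mean ± SD of 3 libraries. Ptprc and Fcer1g show the narrowest gap between groups, with the lowest injured library at 3.70 and 1.14 CPM and the highest non-injured one at 3.70 and 1.07 CPM, while for Itgb2 the gap runs from 4.74 down to 1.53 CPM.

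The adhesion and surface genes came first in size and also showed the weakest change. Itgb2 (chromosome 10, 77530252 to 77565708), without whose beta chain the integrins LFA-1 and Mac-1 cannot reach the surface, had 11.9, 4.74 and 6.12 CPM in injured A, B and C, against 1.53, 1.15 and 1.07 CPM in non-injured A, B and C. Injured A stood well above the other injured libraries, and the lowest injured value was still over the highest non-injured one. Its log2 fold change was 2.59 ± 0.42 (SE, adjusted p 0.0155 by edgeR), a 6.01-fold rise.

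Ptprc (chromosome 1, 138062861 to 138175708) had 8.12, 7.18 and 3.70 CPM in injured A, B and C, against 3.70, 3.21 and 1.34 CPM in non-injured A, B and C. Both groups fell in the same order of letters, and injured C lay level with non-injured A. The log2 fold change of 1.19 ± 0.41 did not pass (adjusted p 0.195 by edgeR). Within the letters the CPM ratio of injured to non-injured was steadier, at 2.19, 2.23 and 2.77 in A, B and C, and with the letter as a block the gene rose (adjusted p 0.0313).

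Cd53 (chromosome 3, 106759921 to 106790149), a tetraspanin that organises receptors in the leukocyte membrane, was the scarcest member of the set by mean count. It had 11, 4 and 5 counts in injured A, B and C, against 1, 4 and 2 in non-injured A, B and C. The pooled counts, 20 against 7, put the ratio at 3.42 (exact 95% interval 1.39 to 9.56, counting error only). Injured B and non-injured B had the same count, and without the filter Cd53 did not pass (adjusted p 0.42 by edgeR).

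Laptm5 (chromosome 4, 130913125 to 130936141) encodes a membrane protein of the leukocyte lysosome that helps to remove antigen receptors from the surface. In the injured libraries this member had the highest mean CPM. It had 12.6, 7.95 and 11.8 CPM in injured A, B and C, against 2.04, 3.44 and 1.61 CPM in non-injured A, B and C. The groups were well apart, with injured B the lowest of its group and non-injured B the highest of the other. Its log2 fold change was 2.17 ± 0.33 (SE, adjusted p 0.01 by edgeR), or 4.49-fold.

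The actin genes were higher by similar amounts, and neither passed edgeR's test of the group alone, while both passed with the block and by DESeq2. Lcp1 (chromosome 14, 75131101 to 75230842), or L-plastin, which bundles actin filaments, had 11.8, 7.95 and 4.27 CPM in injured A, B and C, against 2.93, 1.84 and 2.41 CPM in non-injured A, B and C. Injured A and injured C differed by more than the gap between the groups. Its log2 fold change was 1.74 ± 0.39 (adjusted p 0.0632 by edgeR, and 0.00781 with the letter as a block). Without the filter on low counts Lcp1 passed as well (adjusted p 0.0469).

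Coro1a (chromosome 7, 126699773 to 126707787), the coronin that T cells need to survive, had 3.83, 5.50 and 3.28 CPM in injured A, B and C, against 0.765, 2.07 and 0.535 CPM in non-injured A, B and C. Letter B was the highest of both groups. The log2 fold change was 1.86 ± 0.51 (adjusted p 0.103 by edgeR, and 0.0183 with the block). The exons of Coro1a share 26 bases with Bola2 on the other strand, and those of Lcp1 share 311 and 219 bases with the noncoding Gm15628 and Gm15629 on the other strand. How the counter treated strand is not given in the sources used here, so reads in those stretches cannot be assigned.

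Cybb (chromosome X, 9435252 to 9487771), whose product passes electrons to oxygen to make superoxide, is also reported in muscle fibres. It had 4.13, 2.45 and 4.56 CPM in injured A, B and C, against 1.02, 1.95 and 0.535 CPM in non-injured A, B and C. The letter B libraries nearly met, at a ratio of 1.25, while those of letters A and C differed 4.05-fold and 8.51-fold. Cybb was the 1 tested member that passed neither way, with a log2 fold change of 1.63 ± 0.50 (adjusted p 0.146 by edgeR, and 0.0735 with the block).

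The receptor Fcgr3 rose, and both adaptors were too scarce to test. Fcgr3 (chromosome 1, 171051174 to 171064935), which binds IgG complexes with low affinity on macrophages, neutrophils and natural killer cells, had 5.21, 5.20 and 2.56 CPM in injured A, B and C, against 1.15, 0.689 and 0.535 CPM in non-injured A, B and C. All 3 injured libraries were over all 3 non-injured ones. The log2 fold change was 2.42 ± 0.49 (SE, adjusted p 0.0441 by edgeR).

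Fcer1g (chromosome 1, 171229572 to 171234365), the adaptor that Fcgr3 needs for signalling, lies 164.6 kb from it. It had 19, 16 and 8 counts in injured A, B and C, against 4, 4 and 8 in non-injured A, B and C, so that the letter C libraries had the same count. Pooled, 43 counts against 16 gave a ratio of 3.21 (exact 95% interval 1.77 to 6.11, counting error only). The gene did not pass without the filter (adjusted p 0.249 by edgeR).

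Tyrobp (chromosome 7, 30413760 to 30417585), also called DAP12, serves TREM and other receptors of myeloid and natural killer cells. It had 8, 12 and 9 counts in injured A, B and C, against 4, 2 and 0 in non-injured A, B and C. A count of 0 in non-injured C allows up to 0.402 CPM, taking 3 counts as the limit. Pooled, 29 counts against 6 gave a ratio of 5.78 (exact 95% interval 2.36 to 17.0, counting error only), and without the filter the adjusted p was 0.252 by edgeR.

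**Figure D2:**
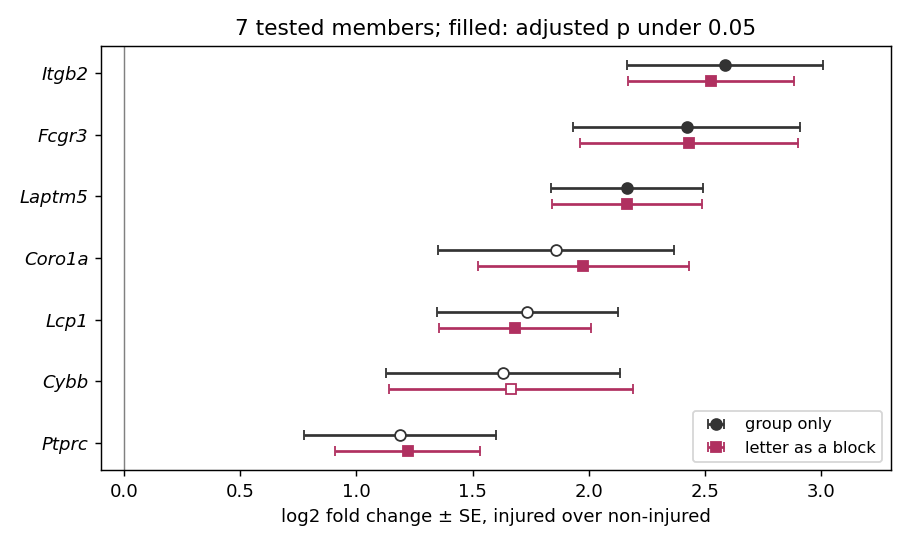
Log2 fold change ± SE, injured over non-injured, for the 7 tested genes (rows), from the fit with the group alone (circles) and with the letter as a block (squares), filled where the adjusted p was under 0.05. Itgb2, Fcgr3 and Laptm5 are filled in both fits, Coro1a, Lcp1 and Ptprc with the block alone, and Cybb in neither.

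The number of members that passed depended on how the test was set up, while their direction did not. With the letter as a block 6 of the 7 rose, a fit that called 3.21% of all tested genes higher. DESeq2 called 5 (Itgb2, Laptm5, Coro1a, Lcp1 and Fcgr3), against 1.57% of all genes, and limma-voom called Laptm5, against 0.329%. Itgb2 lost its call without injured A (adjusted p 0.0522), without non-injured B (0.0543) and without non-injured C (0.108). Laptm5 lost its call without injured C (0.058) or non-injured C (0.0821). Fcgr3 kept its call only without non-injured A (0.0457), with adjusted p up to 0.218 in the 5 other fits that left out 1 library. Lcp1 passed without injured C (0.0486). Without non-injured C, the library with the lowest level of 7 of the 10 genes, 0 members passed. Calls fell over the whole table there, to 20 of 17485 genes higher, against 115 of 16095 with all libraries. In that edgeR fit, which tested 8 members, 7 had an unadjusted p below 0.05. The log2 fold changes there were 1.94 for Laptm5 (unadjusted p 0.000122), 2.19 for Fcgr3 (0.00189) and 2.47 for Itgb2 (0.00029).

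**Figure D3:**
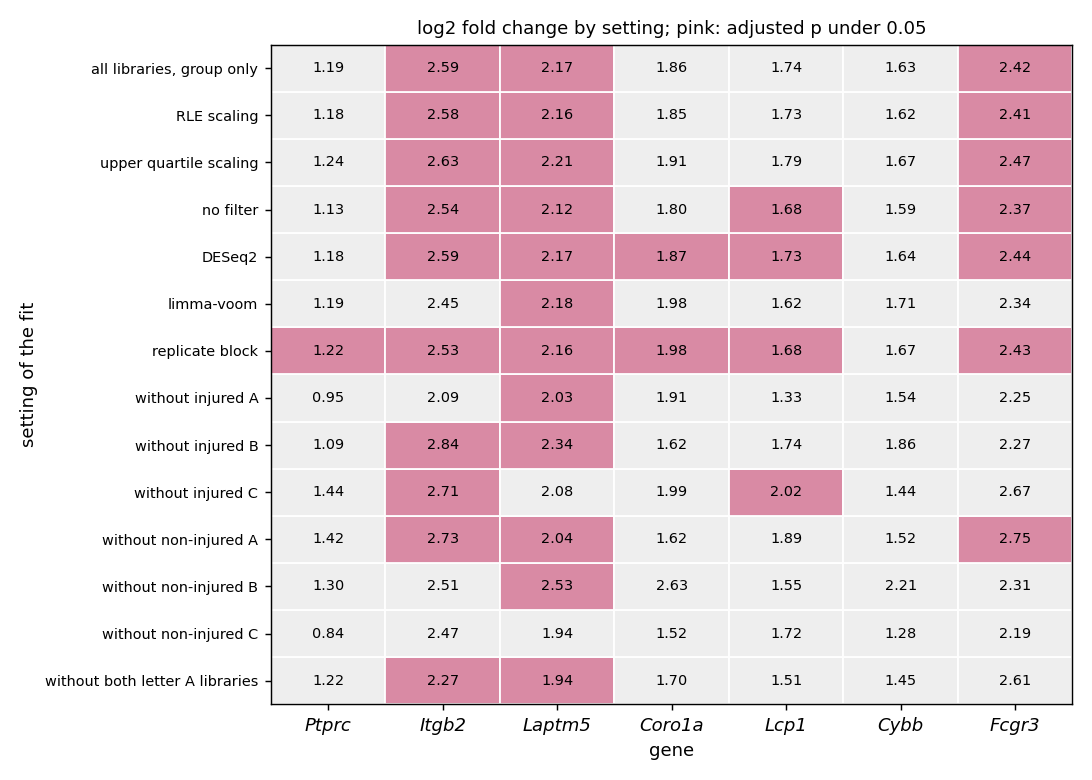
Log2 fold change (number in each tile) of the 7 tested genes (columns) under each setting of the fit (rows), pink where the adjusted p was under 0.05. Values stay positive in all tiles, from 0.84 for Ptprc without non-injured C to 2.84 for Itgb2 without injured B, and the number of pink tiles in a row runs from 0 to 6.

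In CPM the groups did not overlap for any of the 10 genes, with all injured libraries on the higher side. The same was true of 14.1% of the rows of the table and for 15.2% of the tested genes in the same range of mean counts. For 2 of the 10 this rests on the scaling factors. Ptprc overlapped with the size factors of DESeq2, where 9 of 10 were apart, and Ptprc and Fcer1g both overlapped in counts over the library total, where 8 of 10 were. In the letter pairs taken singly, the injured library had the higher CPM for 10 of 10 genes in A, in B and in C. The summed level of the 10 genes was 4.44, 2.96 and 4.21 times higher in injured than in non-injured libraries in letters A, B and C.

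Among the injured libraries the set was highest in A. Injured A, B and C summed to 63.4, 45.8 and 39.4 CPM, and non-injured A, B and C to 14.3, 15.5 and 9.37 CPM. Injured A was the highest of its group for 7 genes, and injured C the lowest for 5. Cybb had its peak in injured C, and Coro1a and Tyrobp had theirs in injured B, so the members did not share 1 order within the injured group.

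Levels can be set between genes only per length, here as CPM per kilobase of the principal transcript in GENCODE. In injured muscle the order of these levels was Laptm5 (4.14 ± 0.952 CPM per kb), Fcer1g (3.21 ± 1.36), Fcgr3 (3.21 ± 1.13), Tyrobp (2.57 ± 0.597), Itgb2 (2.56 ± 1.29), Coro1a (2.41 ± 0.664), Lcp1 (2.08 ± 0.979), Ptprc (1.35 ± 0.495), Cybb (0.781 ± 0.235) and Cd53 (0.575 ± 0.34). Each gene's range over the 3 injured libraries overlapped that of its neighbours in this order. The short adaptor mRNAs, which had among the fewest counts, thus stood level with Itgb2 per length. In non-injured muscle Fcer1g (1.01 ± 0.504 CPM per kb) and Laptm5 (0.909 ± 0.369) led, Cybb (0.246 ± 0.151) and Cd53 (0.164 ± 0.0956) came last, and neighbours again overlapped. The order depends on the length used: over all annotated exons Ptprc takes the last place in both groups.

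Other genes of white blood cells, in a list chosen with earlier results of these data known, were mostly higher. Of 27 in a second list of such genes 25 had a row, all 25 with a higher mean in injured libraries, and 16 were tested. Of these 5 rose and 0 fell, with a median log2 fold change of 1.38, and 8 rose with the block. Of all tested genes 0.715% rose, and 3.21% with the block. Dock2, which activates Rac in leukocytes, had 9.19, 7.03 and 8.97 CPM in injured A, B and C, against 2.04, 2.07 and 2.28 CPM in non-injured A, B and C (log2 1.97 ± 0.29, adjusted p 0.00916 by edgeR), and relative to its mean its replicates lay closer together than those of any tested member. Cd84, a receptor of the SLAM family, and Fyb, an adaptor of T cells and myeloid cells, rose 5.85-fold and 3.87-fold (adjusted p 0.0285 and 0.031). Spi1, the gene of PU.1, had 2.14, 3.06 and 2.71 CPM in injured A, B and C, against 0.51, 0.344 and 0.268 CPM in non-injured A, B and C (log2 2.76 ± 0.55, adjusted p 0.0403). Spi1 and Cd84 were over the filter in 0 non-injured libraries and so, like Fcgr3, entered the test through the injured ones alone. The fifth, Apbb1ip, which links Rap1 to integrins and was named after its value was seen, rose 3.72-fold (adjusted p 0.0488). Ptpn6 and Vav1, part of the list's median and called with the block though not by the group alone, were likewise over the filter in 0 non-injured libraries.

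Most of these calls rest on all 6 libraries. Spi1, Cd84 and Apbb1ip lost theirs whichever library was left out, with adjusted p up to 0.23, 0.177 and 0.218, Fyb kept its call only without non-injured A (0.0225), and Dock2 lost its call without injured C (0.058) or non-injured C (0.0626). At the other end, Lsp1, an actin-binding protein of leukocytes, had 31 ± 7.05 CPM in injured and 29.7 ± 2.04 CPM in non-injured libraries (log2 0.06 ± 0.18, adjusted p 0.907 by edgeR). Lsp1 had the lowest log2 fold change of the list's tested genes and was named after its value was seen.

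Partners of single members moved unevenly. Of the alpha chains that pair with Itgb2, Itgam had 14.1, 6.88 and 8.26 CPM in injured A, B and C, against 1.15, 1.49 and 1.87 CPM in non-injured A, B and C, and rose in all 6 fits that left out 1 library (log2 2.68 ± 0.37, adjusted p 0.00502 with all). Its order over the injured libraries, A, then C, then B, was that of Itgb2. Over the non-injured libraries the orders were opposite, with Itgam lowest in A and highest in C, and Itgb2 highest in A and lowest in C. Itgal, with 44 counts summed over injured and 10 over non-injured libraries, was not tested, and Itgad had a log2 fold change of -0.75 ± 0.68 (adjusted p 0.656). In the integrin list as a whole 1 of 6 tested genes rose, beside 0.715% of all tested genes, and 0 fell, with a median of 0.32.

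Of the other oxidase subunits tested with Cybb, 0 of 4 changed by edgeR, with 1 at an unadjusted p below 0.05, and 1 rose by DESeq2 and 1 with the block, in both cases Ncf1. Ncf1, the p47phox organiser of the complex, had a log2 fold change of 1.49 ± 0.38 (adjusted p 0.0845, and 0.0266 with the block). Cyba, the p22phox chain that stabilises Cybb, had 0.43 ± 0.50 (adjusted p 0.737).

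Among Fc receptors 3 had a row and 0 passed by edgeR, DESeq2 or limma-voom, though 2 had an unadjusted p below 0.05. Of these 2, Fcgr1 was over the filter in 0 non-injured libraries. The inhibitory receptor Fcgr2b, 74.6 kb from Fcgr3 on chromosome 1, had 4.59, 4.74 and 4.13 CPM in injured A, B and C, against 1.79, 0.918 and 1.74 CPM in non-injured A, B and C. Its groups were apart, and its log2 fold change of 1.60 ± 0.40 passed with the block alone (adjusted p 0.0833, and 0.0316 with the block). The exons of these receptors are alike in sequence, and how reads that match several genes were counted is not given, so values of Fcgr3 and Fcgr2b carry that uncertainty. In the list of ITAM-coupled receptors and their kinases 3 were tested and 0 passed by edgeR, all 3 with an unadjusted p below 0.05. DESeq2 called 2 of them, Syk and the phospholipase gene Plcg2, and so did the fit with the block. Over all tested genes those fits called 1.57% and 3.21% higher. Syk, the kinase that docks on ITAMs, had a log2 fold change of 1.33 ± 0.32 (adjusted p 0.0712, and 0.00413 with the block), and Trem2, a receptor that signals through Tyrobp, 1.94 ± 0.74 (adjusted p 0.239). Trem2 and Plcg2 were over the filter in 0 non-injured libraries and so entered the test through the injured ones alone.

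Relatives of the members that many cell types express had a smaller median change. Their log2 fold changes ran from -0.52 for Laptm4b to 0.92 for Nox4, beside 1.19 for Ptprc, the lowest of the tested members. For 6 of the relatives all injured libraries were higher, as held for 14.1% of all rows. Of 14 such genes, among them the phosphatase gene Ptpra, the integrin chains Itgb1 and Itgb5, the coronins Coro1b, Coro1c and Coro6, the plastin Pls3 and the lysosomal Laptm4a and Laptm4b, 0 changed by edgeR, DESeq2 or limma-voom, with 7 at an unadjusted p below 0.05, and the median log2 fold change was 0.28. Laptm4a had 52 ± 6.82 CPM in injured and 65.2 ± 6.17 CPM in non-injured libraries (log2 -0.33 ± 0.15, adjusted p 0.321), and Coro6, the coronin of muscle, 192 ± 32.8 and 166 ± 27.8 CPM (log2 0.20 ± 0.17, adjusted p 0.613). The block fit called 3.21% of all tested genes higher. With the block Itgb1 and Coro1c rose, a pair named after their values were seen (log2 0.50 and 0.90 without it). The difference between these genes and the members was not tested.

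**Figure D4:**
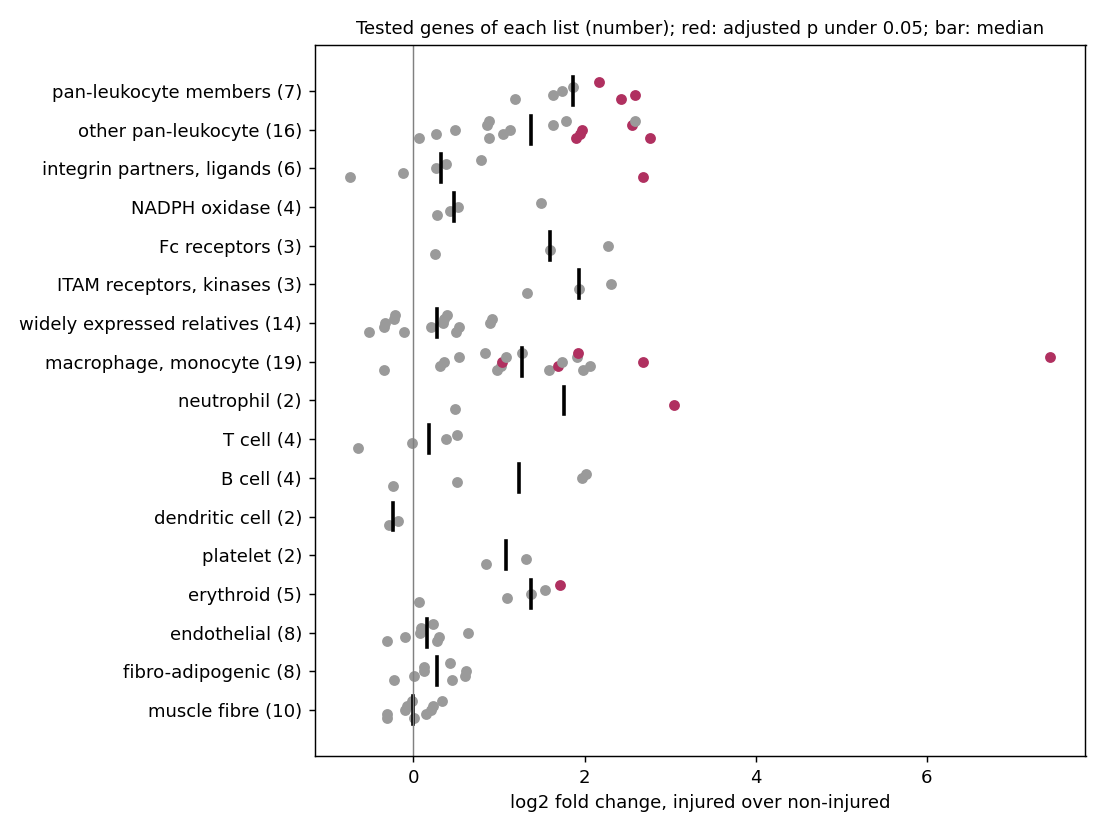
Log2 fold change, injured over non-injured (horizontal axis), of each tested gene in the lists with at least 2 tested genes, red where the adjusted p was under 0.05, with a black bar at the list's median. The 7 members lie between 1.19 and 2.59, and muscle fibre genes between -0.31 and 0.34; the point farthest right is Spp1, whose fitted value rests on 1 count in the non-injured libraries.

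Markers of single white cell lineages were measured unevenly. Macrophage and monocyte markers were measured best, with rows for 20 of 21 and a summed level of 228 to 309 CPM in injured and 160 to 174 CPM in non-injured libraries. Of 19 tested, 5 rose, or 12 with the block, beside 0.715% and 3.21% of all tested genes. Spp1, called in both fits, and Ms4a7, called with the block alone, were over the filter in 0 non-injured libraries. Of 14 neutrophil markers 4 had a row (6.69 to 11.3 CPM summed in injured, 1.91 to 2.53 CPM in non-injured), and of 2 tested Csf3r rose (8.22-fold, adjusted p 0.0445, kept only without injured B), a gene that also entered the test through the injured libraries alone. Of 16 T cell markers 8 had a row, summing to 12 to 19 CPM in injured and 8.3 to 13.4 CPM in non-injured libraries, and 0 of 4 tested changed, with 0 at an unadjusted p below 0.05. Of the 8, 6 had a higher mean in injured libraries. For 3 of them, Cd8a, Themis and Skap1, the groups did not overlap, as held for 14.1% of all rows, and these were not tested. B cell markers summed to 59 to 83.3 CPM in injured and 52.7 to 110 CPM in non-injured libraries, most of it Ighm, and 0 of 4 changed, with 2 at an unadjusted p below 0.05. Those 2, Pax5 and Cd22, were over the filter in 0 non-injured libraries. DESeq2 and limma-voom called 0 in both lists as well. Of 9 natural killer cell markers 2 had a row and 0 were tested. Markers of mast cells and basophils, which use Fcer1g in their IgE receptor, had rows for 5 of 9 and summed to 5.36 to 6.98 CPM in injured and 3.67 to 5.49 CPM in non-injured libraries; dendritic cell markers summed to 21.5 to 29.8 CPM in injured and 26.3 to 28.4 CPM in non-injured libraries, most of it Zbtb46 (means of 18.7 CPM in injured and 22.9 CPM in non-injured). Of 7 dendritic markers with a row, 3 had a higher mean in injured libraries. Among these, Flt3 (1.26 CPM in injured, 0.249 CPM in non-injured) and Clec9a (1.64 CPM in injured, 0.706 CPM in non-injured) were named after their values were seen. Their groups did not overlap, as held for 14.1% of all rows, and they were not tested. Like Zbtb46, Xcr1 (1.29 CPM in injured, 1.48 CPM in non-injured), Cd209a (0.649 and 0.723 CPM) and Siglech (0.71 and 0.872 CPM) had lower means in injured libraries. The markers without a row, among them Cd3d, Cd4, Trac, Cd79a, S100a8, Ly6g and Ncr1, were not analysed here.

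Other features of the libraries differed along with the set. Summed erythroid transcripts, a sign of blood, took 132 to 324 CPM in injured and 71.4 to 151 CPM in non-injured libraries. Of 5 tested erythroid genes 1 was higher, or 4 with the block, beside 0.715% and 3.21% of all tested genes. Platelet markers took 6.55 to 10.7 CPM in injured and 3.33 to 4.72 CPM in non-injured libraries. The share of mitochondrially encoded transcripts was 10.5% ± 0.877 of injured and 6.85% ± 0.662 of non-injured counts (SD, n = 3 each). Library totals were 6.45 to 7.50 M in injured and 7.23 to 8.75 M in non-injured samples. The part of blood, mitochondrial RNA and depth in the differences above was not tested. Muscle fibre markers were all present, at a summed level of 172537 to 179343 CPM in injured and 185403 to 193979 CPM in non-injured libraries, and 0 of 10 changed by edgeR, with 1 at an unadjusted p below 0.05. Endothelial and fibro-adipogenic markers had medians of 0.16 and 0.28, with 0 of 8 changed in each by edgeR and 0 and 2 at an unadjusted p below 0.05. DESeq2 and limma-voom called 0 genes in these 3 lists.

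Genes outside the set with a pattern like that of its 7 tested members were sought among 9059 tested genes with a mean of at least 50 counts. The measure was Pearson's r of log2 CPM with the mean z-score of those 7 over the 6 libraries. Cd53, Tyrobp and Fcer1g were not part of it, and Fcgr3 had entered the test through the injured libraries alone. The 5 genes most alike were Akt1, a kinase of growth signalling (r = 0.997), Card14, a scaffold of NF-kB signalling (0.992), Tmsb4x, which binds actin monomers (0.991), Tnc, the matrix protein tenascin C (0.989), and Arhgdia, a GDP dissociation inhibitor (0.985). These values describe 6 points that fall into 2 groups and share library and scaling. The size of the change differed widely among the 5, from log2 0.56 ± 0.14 for Arhgdia (adjusted p 0.0861) and 0.58 ± 0.15 for Akt1 (adjusted p 0.0851) to 1.16 ± 0.19 for Tmsb4x (adjusted p 0.0155), 3.40 ± 0.28 for Tnc (adjusted p 0.000184) and 3.45 ± 0.39 for Card14 (adjusted p 0.00156), all by edgeR. Tmsb4x had 53, 42.6 and 43 CPM in injured A, B and C, against 22.3, 24.6 and 14.9 CPM in non-injured A, B and C, and lost its call without injured C (0.0596) or non-injured C (0.109).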

How the data were processed

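The values are estimated counts per gene in 6 libraries, as deposited by the authors in 1 table, and 72.2% to 74.5% of them per library are whole. Per the submitters' processing notes, which assign no step, STAR 2.7.8a, Partek and DESeq2 were used with mm10 and hg19. Which tool counted, with which strand setting and gene models, is not stated. The lowest row maximum is 10, so scarcer genes have no row.

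Estimated counts were rounded to whole numbers. edgeR 4.0.16 (R 4.3.3) kept 16095 genes with filterByExpr and dropped 3920, scaled them by TMM and tested injured against non-injured, two-sided, with Benjamini-Hochberg adjustment over all genes. Each SE was taken as |log2 fold change| divided by √F. CPM use the TMM-scaled totals of the tested genes. Alternatives were RLE and upper quartile scaling, DESeq2 1.42.0, limma-voom (limma 3.58.1), other filters, the letter as a block, and libraries left out. The procedure was also run on simulated counts with independent libraries and no letter effect, and the outcome is not used here.

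The labels do not explain the letters. Deviations from the group means correlated between same-letter libraries at 0.316 (A), 0.208 (B) and 0.113 (C) over the tested genes. These values come from the same counts as the tests, so they do not establish that the letters are pairs. The letter is therefore a block only in an alternative fit, whose values are given beside the results they change. Nothing says that the libraries are separate animals, and the p-values then reflect only how far these libraries differ, possibly for technical reasons.

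The members and gene lists were chosen with earlier results of these data known. Named genes were the 10 members, up to 4 called genes of each list, genes that share a complex, family or neighbourhood with a member, and the 5 genes most like the tested members. Others, such as Lsp1, Ptpn6, Vav1, Xcr1, Cd209a and Siglech, fall outside that rule and were named for their values in these data. Promoter sequences are RefSeq's (GRCm38.p6), which held 8 of the 10 members.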

Additional observations from a re-analysis of the deposited data

How the results depend on the processing

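The count of pan-leukocyte genes higher in injured muscle was 3 of 7, and moved to 6 with the replicate block, to 5 with DESeq2 and to 1 with limma-voom. It stayed at 3 with RLE and with upper quartile scaling, was 4 of 10 with no filter on low counts, and 2 when both A libraries were dropped. Leaving out 1 library, with 7 or 8 members then tested, gave 0 to 3 calls, with 1 without injured A, 1 without non-injured B and 0 without non-injured C. Over all genes, the fits without injured A, non-injured B and non-injured C called 62 of 16969, 46 of 17303 and 20 of 17485 higher. With all libraries 115 of 16095 were called higher. With a minimum mean of 50 counts no member was left to test. Over single members and settings, 75 values kept their direction and call, 13 lost a call, 7 gained one and 0 changed sign. Groups stayed apart for 8 of 10 members with total count scaling, which was added after the data were seen. Of the other gene lists, 5 had a gene that rose, and of their 70 counts of risen genes under the alternatives 37 stayed within 1.5 times and 33 moved further, for other pan-leukocyte genes between 0 and 8 and for macrophage and monocyte markers between 2 and 12. Depth limits the precision: 7 members had means of 17.3 to 45.8 counts per library and 3 had fewer than 10.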
